A study of Mus musculus with 6 samples.

Results

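The genes described here are 10 components of transforming growth factor beta (TGF-beta) signalling, taken by name as a set of receptor and SMAD signalling genes: the ligand gene Tgfb1, the receptor genes Tgfbr1 and Tgfbr2, the SMAD genes Smad2, Smad3, Smad4 and Smad7, the repressor genes Ski and Skil, and the target gene Id2. They were found by matching gene identifiers to mouse symbols, and all 10 were present, each as an entry of its own, among the 48005 gene entries of the count table. RNA was sequenced from microglia of CD1 mice kept in culture; microglia are the macrophages that live in the brain. In the EV-treated group, 3 samples were given extracellular vesicles (EVs), small membrane particles that cells shed, collected by serial centrifugation from primary neural stem cells of the subventricular zone of CD1 mice. In the control group, 3 samples received the control treatment, and the labels give no dose, duration, age or sex for either group. The labels do not say whether samples of a group were separate cultures, so each p-value rests on the variation among these 6 samples, and that variation may be technical.

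TGF-beta binds the type II receptor, encoded by Tgfbr2, which recruits and phosphorylates the type I receptor kinase, encoded by Tgfbr1. The type I receptor phosphorylates SMAD2 and SMAD3, which join SMAD4 and enter the nucleus, where SKI and SKIL (also called SnoN) hold their target genes in check and SMAD7 limits the active receptor. In the mouse brain, microglia need TGF-beta to acquire and keep the gene expression of the resting state.

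Total counts ran from 133112063 to 142805303 in EV-treated libraries and from 109744701 to 162544804 in control libraries. The groups were far apart over the whole transcriptome: edgeR's quasi-likelihood test covered 16605 entries, of which 66.5% passed an adjusted p under 0.05, with 33.0% rising and 33.5% falling. Of 12 microglia markers tested, 9 fell and none rose. Among the 3 not called, the general microglial and macrophage genes Csf1r and Itgam averaged 808 ± 101 and 928 ± 71.5 CPM in EV-treated libraries and 775 ± 34.5 and 910 ± 141 CPM in control libraries (SD, n = 3 each; Itgam is counted together with overlapping gene models). CPM are counts divided by a library size adjusted by TMM, in the usual unit of that name, a scaling that assumes most genes are unchanged. P2ry12, a defining gene of resting microglia, was low in both groups, at 0.0885 ± 0.0334 CPM in EV-treated and 3.77 ± 1.14 CPM in control libraries. Of 6 astrocyte markers tested, 4 rose and 1 fell, and the summed level of the list was 94.97 to 131 CPM in EV-treated and 14.9 to 20.4 CPM in control libraries. Slc1a2 (74.8 against 0.0952 CPM) and Gja1 (29.1 against 0.0943 CPM) were higher in EV-treated than in control libraries. The defining astrocyte genes Gfap and Aqp4 were near 0 in both groups, with at most 13 counts in an EV-treated and 27 counts in a control library, too few to give a direction. The summed oligodendrocyte lineage markers were at 30.6 to 43.8 CPM in EV-treated and 213 to 440.3 CPM in control libraries, and the neural stem and progenitor markers at 7.01 to 8.41 CPM in EV-treated and 56.2 to 98.2 CPM in control libraries. Single genes of these lists went both ways. Of 5 oligodendrocyte lineage genes tested 1 rose and 2 fell, and of 5 neural stem and progenitor genes 2 rose and 2 fell. These marker levels moved with the groups, and their part in the results below was not tested. In such bulk RNA, fewer cells of a type and less RNA per cell cannot be told apart. The log2 ratio of Y-linked to Xist counts was -5.51 to -4.86 in EV-treated libraries and -3.86 to -1.35 in control libraries, so it moved with the groups, and it is used as a covariate in 1 alternative fit.

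Of the 10 genes, 9 changed in EV-treated microglia, and the changes ran in opposite directions along the pathway. Tgfbr1, Tgfbr2 and Ski fell, while Smad2, Smad3, Smad4, Smad7, Skil and Id2 rose, and Tgfb1 did not pass the test. The count of 9 of 10 members that passed stands beside 66.5% of all entries tested. A log2 change of at least 1 was passed as well by 5 of them, Tgfbr1, Smad3, Smad7, Ski and Id2, beside 40.0% of all entries. The median log2 fold change was 0.62 over the 10 members and -0.02 over all entries. The EV-treated and control libraries did not overlap in the 9 genes called, against 71.3% of all entries tested without overlap, and overlapped in Tgfb1.

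**Figure D1:**
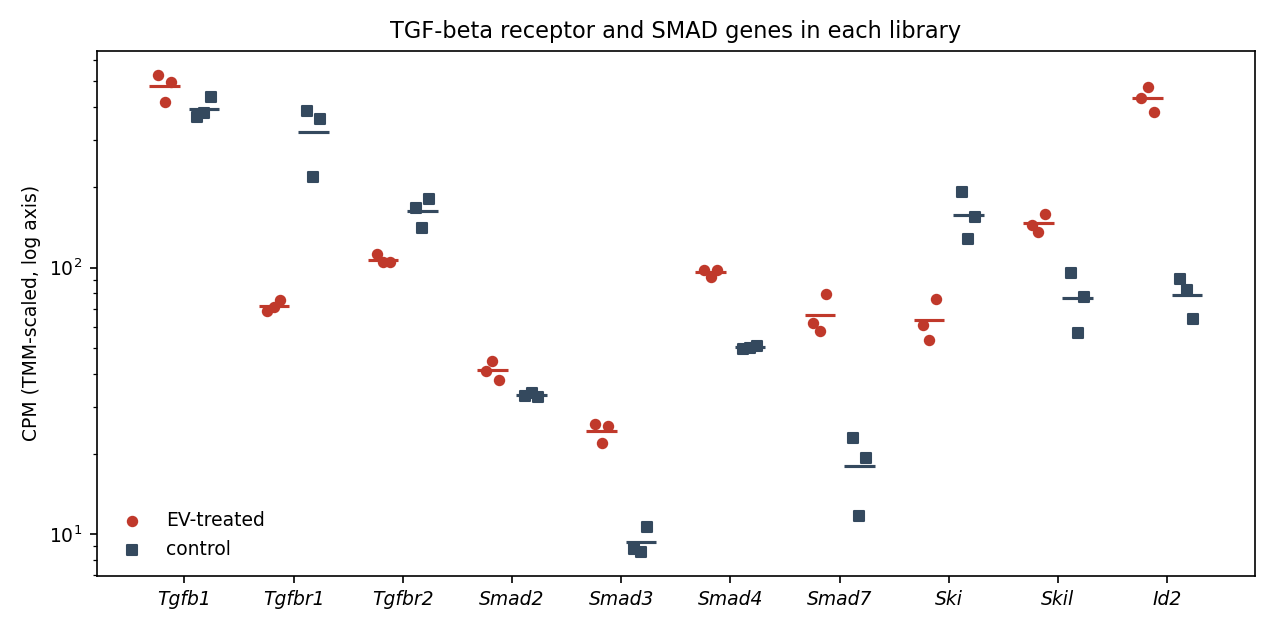
Level of each of the 10 genes in every library, in CPM after TMM scaling on a log axis; circles are EV-treated libraries, squares are control libraries and bars are group means (n = 3 each). The EV-treated libraries lie below the control libraries for Tgfbr1, Tgfbr2 and Ski and above them for Smad2, Smad3, Smad4, Smad7, Skil and Id2, and the groups overlap for Tgfb1.

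The ligand gene Tgfb1 (ENSMUSG00000002603, GRCm38 chromosome 7, 25687002 to 25705077, plus strand) was abundant in every library. It had 530.0, 418 and 499 CPM in EV-treated libraries A, B and C, against 366, 380 and 437 CPM in control libraries A, B and C. The EV-treated library B lay below the control library C, so the groups overlapped. The log2 fold change was 0.29 (SE 0.13, edgeR adjusted p = 0.0754). It passed the threshold without EV-treated B, at 0.39 (adjusted p = 0.0280), it was -0.08 when library totals alone set the scale, and it was 0.02 (adjusted p = 0.949) with the sex-linked ratio in the fit.

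Tgfbr1 (ENSMUSG00000007613, chromosome 4, 47353222 to 47414931, plus strand), the type I receptor gene, fell most among the members. It had 68.5, 71.1 and 75.8 CPM in EV-treated A, B and C, against 386, 220 and 362 CPM in control A, B and C. The EV-treated libraries were close to each other, and the lowest control library, B, was well above all of them. The mean was 71.8 ± 3.71 CPM in EV-treated and 323 ± 89.8 CPM in control libraries (SD, n = 3 each), a log2 fold change of -2.17 (SE 0.20, edgeR adjusted p = 7.99e-06), or 0.223 of the control level. Tgfbr2 (ENSMUSG00000032440, chromosome 9, 116084293 to 116175360, minus strand), the type II receptor gene, fell less. It had 112, 105 and 105 CPM in EV-treated A, B and C, against 167, 140 and 180 CPM in control A, B and C. All EV-treated libraries were below all control libraries, and the log2 fold change was -0.60 (SE 0.12, edgeR adjusted p = 0.00127).

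The receptor-regulated SMAD genes differed in how much they rose. Smad3 (ENSMUSG00000032402, chromosome 9, 63646767 to 63757994, minus strand), which encodes a DNA-binding effector of TGF-beta, had 25.9, 22.0 and 25.5 CPM in EV-treated A, B and C, against 8.83, 8.59 and 10.6 CPM in control A, B and C. Each EV-treated library was above each control library, with a log2 fold change of 1.39 (SE 0.13, edgeR adjusted p = 8.55e-06). Smad2 (ENSMUSG00000024563, chromosome 18), its close relative, had 41.1, 44.8 and 38.0 CPM in EV-treated libraries, against 32.9, 33.9 and 32.8 CPM in control libraries. The groups were separate by a small margin. Smad2 rose by 0.31 on the log2 scale (SE 0.10, edgeR adjusted p = 0.0177). The call was lost, with a similar fold change of 0.26 to 0.31, in 5 of the 6 fits that left out a library: the adjusted p was 0.0828, 0.0556 and 0.0556 without control A, B and C, and 0.0652 and 0.0531 without EV-treated A and B. With library totals alone Smad2 stood at -0.06, and with upper-quartile scaling at 0.19, neither of which passed.

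Smad4 (ENSMUSG00000024515, chromosome 18) encodes the partner that SMAD2 and SMAD3 share with the SMADs of bone morphogenetic proteins (BMPs). It had 98.3, 92.2 and 97.9 CPM in EV-treated A, B and C, against 49.6, 50.1 and 51.0 CPM in control A, B and C, and rose by 0.94 on the log2 scale (SE 0.09, edgeR adjusted p = 1.25e-05). The inhibitory Smad7 (ENSMUSG00000025880, chromosome 18), which recruits ubiquitin ligases to the active receptor, had 61.8, 57.7 and 80.0 CPM in EV-treated A, B and C, against 22.9, 11.7 and 19.3 CPM in control A, B and C. Control B was the lowest and EV-treated C the highest of the 6 libraries. Smad7 rose by 1.89 (SE 0.23, edgeR adjusted p = 6.12e-05), or 3.70-fold.

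The paralogous repressor genes Ski and Skil, whose proteins bind SMAD complexes on DNA and recruit corepressors, moved apart. Ski (ENSMUSG00000029050, chromosome 4, 155154075 to 155222592, minus strand) had 60.9, 53.3 and 76.2 CPM in EV-treated A, B and C, against 192, 128 and 154 CPM in control A, B and C, a log2 fold change of -1.32 (SE 0.18, edgeR adjusted p = 0.000111). Skil (ENSMUSG00000027660, chromosome 3, 31095058 to 31122577, plus strand) had 144, 136 and 159 CPM in EV-treated A, B and C, against 95.4, 56.7 and 77.8 CPM in control A, B and C. Neither gene's groups overlapped. Skil rose by 0.94 (SE 0.17, edgeR adjusted p = 0.000948). When the sex-linked ratio entered the fit, Skil had 0.92 (adjusted p = 0.067), and counted on its most-covered exon bin alone it had 0.37 (adjusted p = 0.0848).

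Id2 (ENSMUSG00000020644, chromosome 12, 25093801 to 25096092, minus strand) encodes an inhibitor of basic helix-loop-helix transcription factors and is a known target of SMAD signalling, which TGF-beta lowers and BMPs raise in many mammalian cells. It had 435, 477 and 385 CPM in EV-treated A, B and C, against 90.8, 82.3 and 63.9 CPM in control A, B and C. Each EV-treated library was more than 4 times each control library. Id2 rose by 2.45 (SE 0.16, edgeR adjusted p = 6.78e-07), or 5.47-fold, the highest rise of the 10 genes.

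**Figure D2:**
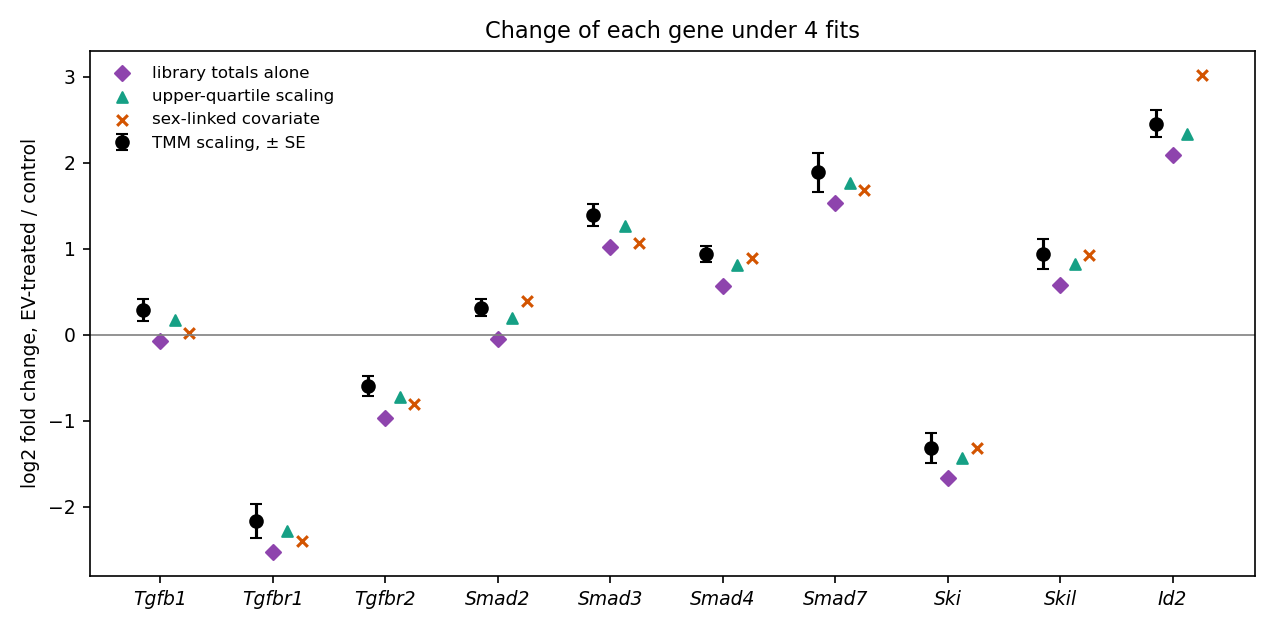
Log2 fold change of each gene, EV-treated over control, from edgeR with TMM scaling (circles, bars ± SE), with library totals alone (diamonds), with upper-quartile scaling (triangles) and with the sex-linked ratio (Y-linked counts to Xist counts) as a covariate (crosses). Library totals alone lower every value by about the same amount and take Tgfb1 and Smad2 to -0.08 and -0.06; the other 8 genes keep their side of 0 in all 4 fits.

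The scale on which libraries are compared shifts all these values together. With library totals alone the median of all entries tested was -0.38, and rises made up 34.0% of calls (49.7% after TMM scaling); Tgfbr2, Smad4 and Skil had log2 fold changes of -0.97, 0.57 and 0.58 (adjusted p = 4.98e-05, 0.000623 and 0.0111), more than 1.5 times away from their TMM values. With the sex-linked ratio in the fit, 7 of the 9 calls held. Smad2, at 0.39 (adjusted p = 0.141), and Skil no longer passed, with log2 fold changes no more than 0.1 away from those without it.

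Ratios between members within a library do not depend on library scaling. In counts per kilobase (kb) of exon, the Tgfbr1 to Tgfbr2 ratio was 0.766, 0.850 and 0.905 in EV-treated A, B and C, against 2.89, 1.96 and 2.52 in control A, B and C. By this measure type I receptor transcripts exceeded type II receptor transcripts in each control library and were below them in each EV-treated library. Which gene is ahead depends on the exon lengths used, while the difference between the groups does not. A 3′ bin of 4636 of the 8187 Tgfbr2 exon bases held 182 of 1000 counts in EV-treated and 183 of 1000 in control libraries. Its length lowers Tgfbr2 per kb. The Smad7 to Tgfbr1 ratio was 1.30, 1.17 and 1.52 in EV-treated libraries, against 0.0860, 0.0771 and 0.0769 in control libraries, a log2 difference of 4.05. The Skil to Ski ratio was 1.36, 1.47 and 1.20 in EV-treated libraries, against 0.285, 0.254 and 0.289 in control libraries. The Smad2 to Smad3 ratio was 2.48, 3.18 and 2.33 in EV-treated libraries, against 5.82, 6.17 and 4.83 in control libraries. The Smad3 to Smad4 ratio had a log2 difference of 0.45 and the Id2 to Id1 ratio of 1.499, both without overlap. The Smad7 to Smad3 ratio overlapped, with 2.93 to 3.85 in EV-treated and 1.67 to 3.19 in control libraries. With 3 libraries against 3, the 2-sided exact permutation test cannot go below p = 0.1, which the 6 ratios without overlap reached (adjusted over the 7 ratios, p = 0.117), and Smad7 to Smad3 had p = 0.2.

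**Figure D3:**
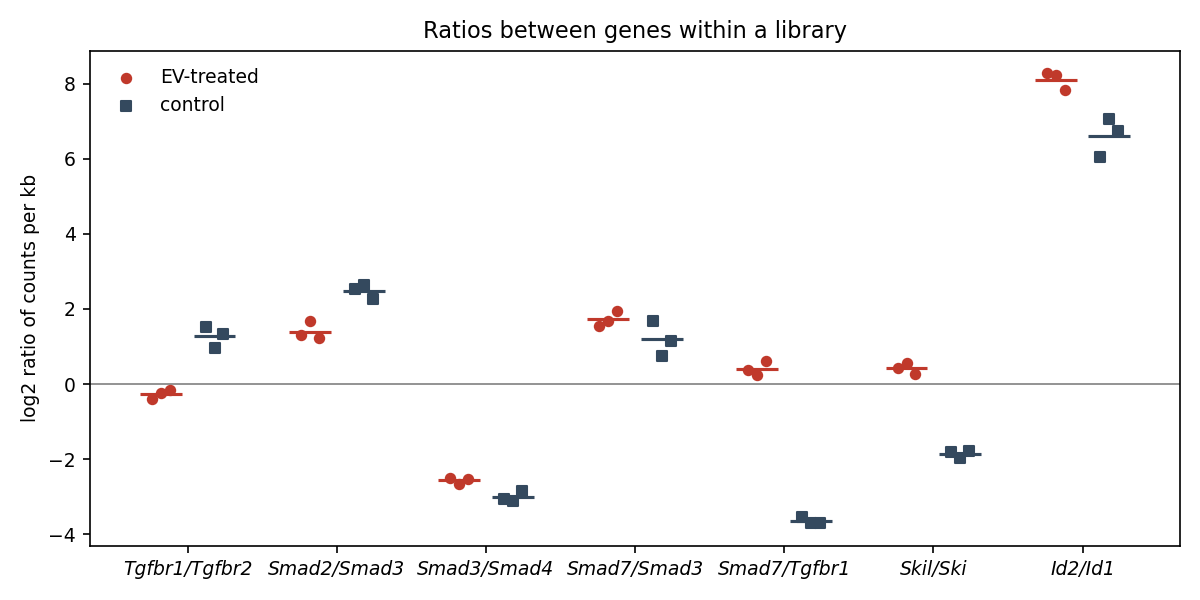
Log2 ratio of counts per kb between pairs of genes in each library; circles are EV-treated libraries, squares are control libraries and bars are means (n = 3 each). The groups lie apart for 6 of the 7 pairs, furthest for Smad7/Tgfbr1, and overlap for Smad7/Smad3.

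Levels between genes were compared as CPM per kb of annotated exon. In EV-treated libraries Id2 led with 340.3 ± 36.3, followed by Tgfb1 with 95.6 ± 11.5 and Smad4 with 25.9 ± 0.916 CPM per kb (SD, n = 3). The next 6 genes, Skil, Smad7, Tgfbr2, Smad2, Ski and Tgfbr1, lay between 15.1 and 10.99 CPM per kb, with each neighbour in that order within the sum of their SDs. In control libraries Tgfb1 led with 78.3 ± 7.44, then Id2 with 62.2 ± 10.8 and Tgfbr1 with 49.4 ± 13.7 CPM per kb, and neither neighbouring step among these exceeded the sum of the SDs. Ski (28.4), Tgfbr2 (19.9), Smad4 (13.5), Smad2 (9.36), Skil (7.90), Smad7 (3.98) and Smad3 (1.69 CPM per kb) followed, where Smad2 and Skil alone among the neighbours did not differ beyond their spread. Smad3 was the lowest of the 10 in both groups, at 4.41 ± 0.387 CPM per kb in EV-treated libraries. These values use every annotated exon base, so genes with long annotated stretches that hold few counts are understated: a bin of 2282 of the 5042 exon bases of Tgfb1 held about 1 of 1000 of its counts.

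The files count each exon in bins, which allows a test of whether counts shifted between parts of a gene. Usage shifted in 4 members, Tgfbr2, Smad2, Smad4 and Skil, at an adjusted p under 0.05 (edgeR's diffSpliceDGE, Simes test per gene), against 21.6% of the 12265 genes tested. Per bin, 6 of the 141 bins tested in the members shifted, against 4.21% of all bins. No bin of Tgfb1, Tgfbr1, Smad3, Smad7, Ski or Id2 shifted.

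In Tgfbr2 the shifted bins were at the 5′ end. One is a cassette exon of 75 bases (GRCm38 chr9:116158271-116158345, minus strand), exon 2 of the annotated transcript Tgfbr2-202, that is coding in full and absent from the other annotated transcript. In human TGFBR2 the inclusion of such an exon gives a longer receptor with an insert in its extracellular part. Its sequence is given here because it carries the shift, as it stands in the GENCODE transcript, with the 75 bases of the exon in capitals and 30 bases of the neighbouring exons on either side:
Tgfbr2 exon 2: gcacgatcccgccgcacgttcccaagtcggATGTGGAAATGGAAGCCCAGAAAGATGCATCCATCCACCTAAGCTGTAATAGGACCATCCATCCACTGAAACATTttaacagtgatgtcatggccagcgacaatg

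This exon took 10.3, 9.90 and 12.4 of 1000 Tgfbr2 counts in EV-treated A, B and C, against 20.4, 17.8 and 17.9 of 1000 in control A, B and C. It rested on 143, 118 and 166 counts in EV-treated libraries and 450, 318 and 607 counts in control libraries. Its use relative to the rest of the gene fell by 0.55 on the natural-log scale (bin-level adjusted p = 0.00105). The neighbouring coding exon of 169 bases took 69.8 of 1000 counts in EV-treated and 62.2 of 1000 in control libraries and was not called (adjusted p = 0.943). The outermost 95 bases of the 5′ untranslated region took 0.933 of 1000 counts in EV-treated and 2.91 of 1000 in control libraries (relative natural-log change -1.14, adjusted p = 0.000495). This bin held few counts, 9, 15 and 12 in EV-treated A, B and C and 58, 60 and 93 in control A, B and C. The Simes call for Tgfbr2 held with each library left out, with adjusted p of 0.000562 to 0.0244.

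In Skil the strongest shift was in a bin of 2974 bases that only the annotated retained-intron transcript Skil-206 contains. It took 5.71, 6.63 and 9.98 of 1000 Skil counts in EV-treated A, B and C, against 1.11, 1.25 and 1.98 of 1000 in control A, B and C (relative natural-log change 1.62, adjusted p = 7e-06). A 5′ bin of 358 bases rose in relative use as well, to 55.4 of 1000 in EV-treated against 34.1 of 1000 in control libraries (relative natural-log change 0.49, adjusted p = 0.0478). The 138 bases whose omission gives the shorter SnoN2 form in human cells took 7.13 of 1000 counts in EV-treated and 6.91 of 1000 in control libraries and were not called (adjusted p = 1). The most-covered bin, 3293 bases at the 3′ end, took 227 of 1000 counts in EV-treated and 357 of 1000 in control libraries, and was not called either (adjusted p = 0.1). Without the bins called, Skil still rose, by 0.89 (edgeR adjusted p = 0.00126).

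**Figure D4:**
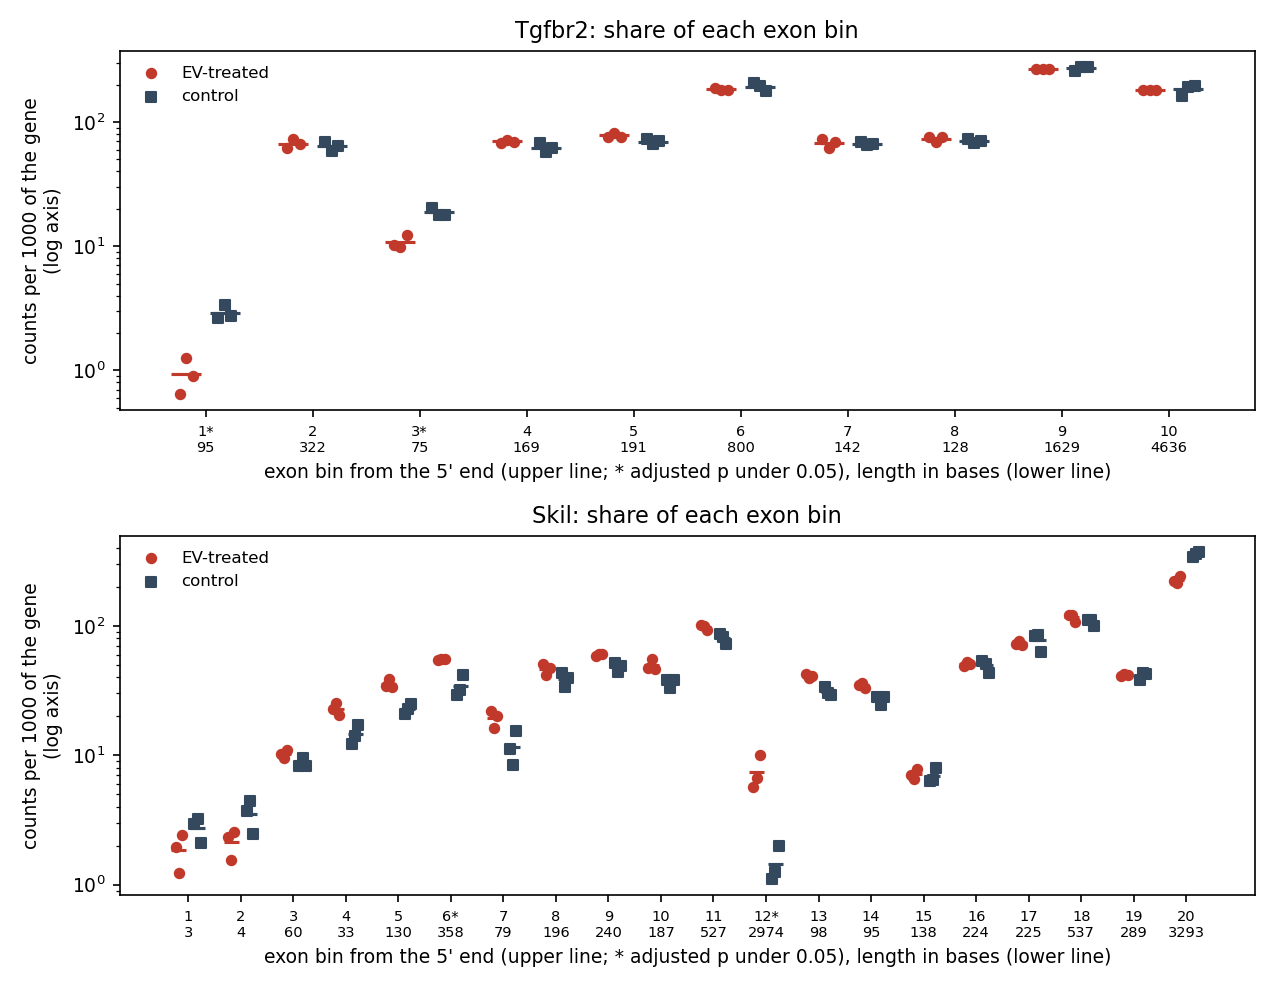
Counts of each tested exon bin per 1000 counts of the gene, on a log axis, for Tgfbr2 (top) and Skil (bottom); bins run from the 5′ end, with their length in bases below, circles are EV-treated libraries, squares are control libraries, bars are means (n = 3 each) and a star marks a bin with an adjusted p under 0.05. Bins 1 and 3 of Tgfbr2 are lower in EV-treated libraries, and bins 6 and 12 of Skil are higher.

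Smad2 and Smad4 each had 1 shifted bin. The last 437 bases of the longest Smad2 3′ end took 11.6, 11.98 and 15.2 of 1000 Smad2 counts in EV-treated libraries, against 28.1, 25.6 and 29.4 of 1000 in control libraries (relative natural-log change -0.77, adjusted p = 0.000345). The 90-base exon of Smad2 whose skipping gives a DNA-binding form of the protein took 63.5 ± 10.6 of 1000 counts in EV-treated and 59.7 ± 4.16 of 1000 in control libraries (SD, n = 3 each), with no call (adjusted p = 1). The Smad4 bin, an exon of 36 bases of the noncoding transcript Smad4-204, held 15, 16 and 15 counts in EV-treated libraries and 1, 1 and 4 counts in control libraries. Its gene-level call (Simes adjusted p = 0.0393) was lost with any library left out, as it was among bins with at least 50 counts.

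The promoters of Tgfbr1 and Id2, the members with the deepest fall and the highest rise, are printed from RefSeq (GRCm38.p6), from 250 bases before to 50 bases after the start of the transcript. Promoters were found for Tgfb1, Tgfbr1, Tgfbr2, Smad3, Ski and Id2, and not for Smad2, Smad4, Smad7 or Skil. The short motifs CAGAC and GC-rich GGCGCC, which SMAD proteins bind, were searched on both strands, and matches are in capitals:
Tgfbr1 promoter, chr4:47352972-47353271, plus strand: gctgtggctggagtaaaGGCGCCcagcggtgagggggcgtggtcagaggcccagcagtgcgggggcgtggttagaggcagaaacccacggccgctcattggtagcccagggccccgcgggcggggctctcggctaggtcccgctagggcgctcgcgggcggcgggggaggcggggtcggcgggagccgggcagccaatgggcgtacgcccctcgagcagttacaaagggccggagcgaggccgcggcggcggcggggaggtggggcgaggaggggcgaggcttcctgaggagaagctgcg
Id2 promoter, chr12:25096043-25096342, minus strand: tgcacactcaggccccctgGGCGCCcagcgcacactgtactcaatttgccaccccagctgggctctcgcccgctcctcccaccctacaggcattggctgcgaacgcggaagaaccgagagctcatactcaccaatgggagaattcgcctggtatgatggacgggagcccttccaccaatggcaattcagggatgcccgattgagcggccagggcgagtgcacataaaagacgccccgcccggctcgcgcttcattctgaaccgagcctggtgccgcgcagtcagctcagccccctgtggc

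Each of these promoters held GGCGCC once, as did that of Ski, against 11.9% of all 32851 RefSeq promoters of this length. The bases G and C made up 74.7% of the Tgfbr1, 63.3% of the Id2 and 85.3% of the Ski promoter. The share over all promoters was not matched for this content. CAGAC was present in the Tgfbr2 promoter and in a further Tgfbr1 promoter, against 49.6% of all promoters. The exon bin at the start of that further promoter's transcript, Tgfbr1-203, held 5, 2 and 16 counts in EV-treated A, B and C. In control A, B and C it held 34, 34 and 99 counts. Neither motif was in the Tgfb1 or Smad3 window. Genes with GGCGCC here include both the deepest fall and the highest rise, and a link between the motif and the changes was not tested.

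The wider pathway was described by role, from lists of 165 further genes, of which 152 were tested. Of these 69 rose and 50 fell. Their median log2 fold change was 0.26, beside -0.02 over all entries, of which 33.0% rose and 33.5% fell.

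In the list of other ligands, which also holds the protease gene Bmp1, 10 of 14 genes tested rose and 1 fell. Inhba, which encodes the activin A subunit, a ligand that also signals through SMAD2 and SMAD3, had 973 ± 76.7 CPM in EV-treated and 1.85 ± 0.632 CPM in control libraries. Bmp1, a protease of the matrix named with the BMPs, had 25.7 ± 3.27 against 1.59 ± 0.765 CPM, and Tgfb3 had 1.81 ± 0.164 against 0.956 ± 0.125 CPM, in the same order (SD, n = 3 each). Tgfb3 had a log2 fold change of 0.92, and of 1.12 (edgeR adjusted p = 0.0663) once the sex-linked ratio was in the fit.

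Genes that store or activate latent TGF-beta rose in 10 of 16 cases and fell in 3, with a median of 1.52. Nrros, whose protein holds latent TGF-beta on the surface of microglia, fell to 16.7 ± 0.708 CPM in EV-treated libraries, against 97.0 ± 16.1 CPM in control libraries. Lrrc32, which encodes the related GARP of regulatory T cells, rose to 5.85 ± 0.853 CPM, against 0.683 ± 0.0911 CPM in control. Furin, whose protease matures the TGF-beta precursor, had a log2 fold change of 2.07 (SE 0.16) and the TGF-beta-activating thrombospondin gene Thbs1 3.27 (SE 0.27). The binding protein gene Ltbp3 (-1.86, SE 0.17) and the urokinase gene Plau (-4.28, SE 0.17) fell; Ltbp3 had -0.33 (edgeR adjusted p = 0.0748) on its most-covered bin.

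Of 11 genes of secreted or membrane inhibitors 8 rose and 2 fell, with a median of 2.92. The activin antagonist gene Fst rose by 2.17 and Fstl1 by 2.92, and the decoy receptor gene Bambi fell, at -1.54 (SE 0.25). Of 9 other receptors 4 rose and 2 fell: Acvrl1, another type I receptor gene, rose by 1.73 (SE 0.11), the activin receptor genes Acvr1b and Acvr2a by 1.29 and 1.23, and the co-receptor gene Eng fell, at -1.97 (SE 0.17). Tgfbr1 thus fell while the type I receptor genes Acvr1b and Acvrl1 rose, with 69.5 ± 8.25 and 171 ± 10.5 CPM in EV-treated and 28.3 ± 0.422 and 51.5 ± 3.46 CPM in control libraries (SD, n = 3 each).

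The BMP-regulated Smad1 rose by 0.88 and Smad5, counted with an overlapping gene model, fell, at -0.49. Smad6, the other inhibitory SMAD gene, rose with Smad7, to 33.4 ± 4.19 CPM in EV-treated against 2.20 ± 0.968 CPM in control libraries (log2 fold change 3.92, SE 0.29). Among 30 partners and regulators of SMADs 15 rose and 6 fell, with a median of 0.38. With library totals alone 9 rose and 11 fell. Sik1, a kinase gene and target of TGF-beta, rose by 2.95, the corepressor gene Tgif1 by 1.78 and the ubiquitin ligase gene Nedd4l by 2.03, while the ligase gene Wwp1 (-1.05) and the phosphatase gene Ctdsp1 (-0.76) fell. Of 13 genes of the kinase routes outside the SMADs 5 rose and 3 fell, with a median of -0.01; Traf6, the ligase that couples receptors to TAK1, rose by 3.53 (SE 0.11) and the p38 gene Mapk14 fell, at -1.44 (SE 0.11). With library totals alone 3 of these rose and 6 fell, and 3 rose without control A, control B or EV-treated A.

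Known transcriptional targets of TGF-beta did not move one way. Of 28 tested, 14 rose and 9 fell, with a median of 1.19. The targets Junb (1.91), Cish (6.89) and Vegfa (7.54) rose, and Tgfbi (-2.38), Klf11 (-1.24) and Pdgfb (-3.34) fell. Within the ID family Id1 had 1.43 ± 0.137 CPM in EV-treated and 0.794 ± 0.411 CPM in control libraries, a call (adjusted p = 0.0468) that was lost without control B, control C or any EV-treated library. Id3 had 11.4, 12.5 and 11.7 CPM in EV-treated A, B and C, against 3.34, 0.284 and 0.387 CPM in control A, B and C. Control A stood well above the other control libraries, and the log2 fold change of Id3 was 3.16 (SE 0.75, edgeR adjusted p = 0.00428), or 5.10 without control A; that of Id1 was 0.86, or 1.34 without control A. The partners that ID proteins bind, encoded by Tcf3, Tcf12 and Tcf4, fell, at -1.30, -0.63 and -0.41.

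Microglial genes that depend on TGF-beta fell in 21 of 27 cases and rose in 2, with a median of -1.26, beside 33.5% of all entries falling. This list was chosen with earlier results of these data known. The fractalkine receptor gene Cx3cr1 had -7.09 (SE 0.31), the phagocytic receptor gene Mertk -4.32 (SE 0.20) and its bridging ligand gene Pros1 -3.87 (SE 0.10). Sall1, which encodes a transcription factor that marks microglia, was called with a rise of 0.84 (SE 0.14), and had 0.52 (adjusted p = 0.137) once the sex-linked ratio was in the fit, and Jun rose by 0.99. The list overlaps the microglia markers, whose summed level was 3854 to 3992 CPM in EV-treated and 7390 to 9235 CPM in control libraries.

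**Figure D5:**
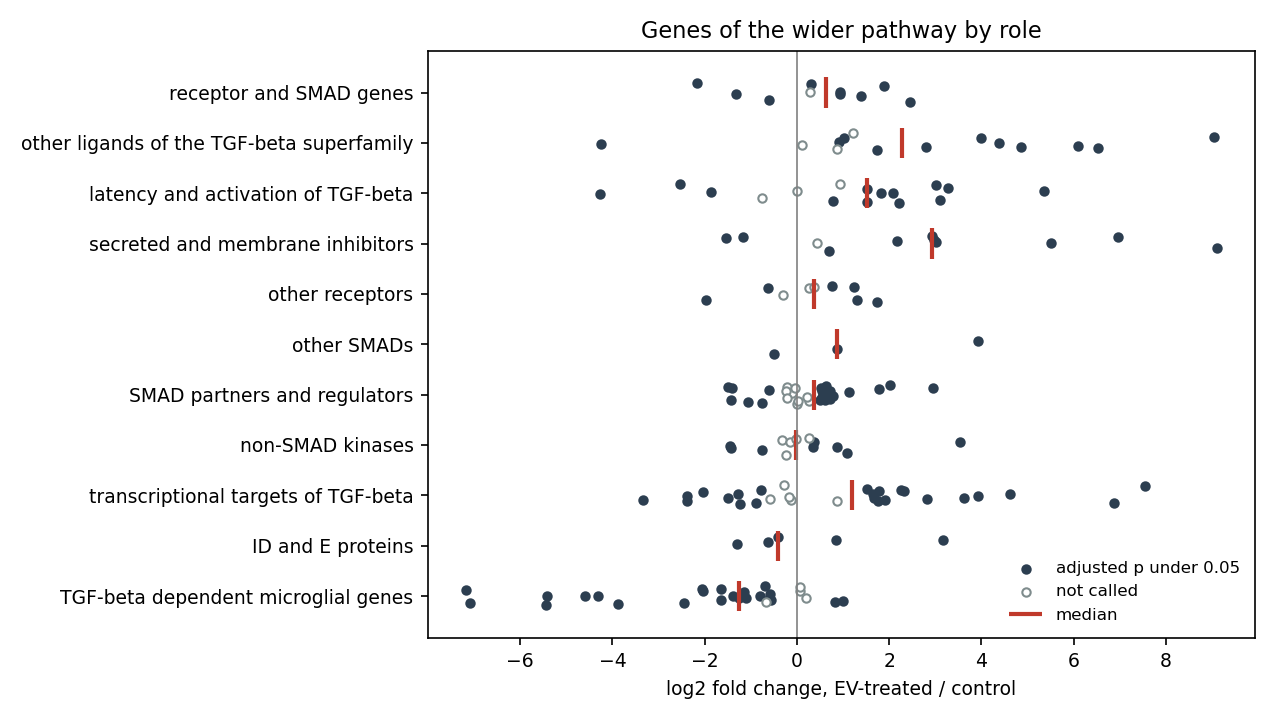
Log2 fold change, EV-treated over control, of each tested gene of the lists by role; filled points have an edgeR adjusted p under 0.05, open points do not, and red bars are medians. The 10 receptor and SMAD genes spread from -2.17 to 2.45, and the microglial genes that depend on TGF-beta lie mostly below 0, with a median of -1.26.

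The genes of these lists most like each member were found by the root mean square difference between log2 CPM profiles over the 6 libraries, each centred on its own mean. Smad4 was closest to Smad1 (0.06), Smad3 to Acvr2a (0.11) and Acvr1b (0.12), Tgfbr2 to Tcf12 (0.07), and Smad2 to Hdac1 (0.04). Tgfbr1 was closest to Spp1 (0.14), which encodes the secreted protein osteopontin, Ski to Tcf3 (0.14), Skil to Smurf1 (0.14), Smad7 to Itgav (0.20), Tgfb1 to Tab2 (0.10) and Id2 to Cdkn1a (0.14). Each likeness is a description of these 6 libraries, which share the difference between the groups.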

How the data were processed

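Polyadenylated RNA of 6 samples was made into NEBNext Ultra libraries, per the labels' protocols. Trimmomatic 0.36, STAR, Subread and DESeq2 with build GRCm38 are listed in the submitters' processing notes; their settings, the strand counted and the release of the annotation were not given in the sources used here. Overlapping and antisense genes therefore remain uncertain. The deposited values are raw counts per exon bin, per the file headers, and the series table equals the files of single samples in all 6 libraries. A read that spans bins may count in each.

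Bins were summed per gene entry (1194 of 48005 join overlapping genes, with 11.3% to 16.5% of counts), filtered with filterByExpr, scaled by TMM and compared with edgeR 4.0.16 (glmQLFTest, R 4.3.3), 2-sided, with Benjamini-Hochberg adjustment over all entries and a threshold of 0.05. SE is the log2 fold change over the square root of F. Bin usage was tested with diffSpliceDGE, and relative changes of bins are given as natural logs. Alternatives used DESeq2 1.42.0, limma-voom (limma 3.58.1), other scalings, filters, counting, a replicate block and left-out libraries. Exon bins of the members were annotated with GENCODE vM21. Libraries of a group differed by more than counting noise, with chi-square values of 85.1 to 254 per degree of freedom.

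The members and lists were chosen with earlier results of these data known. From each list up to 3 rising and 3 falling genes with the smallest p were eligible for naming, if the mean log2 CPM was at least 0 and groups did not overlap; the lists of other cell types were used as markers. The microglia and astrocyte genes of the opening and the exon bins not called were chosen after their values were seen. Among the other markers, 1 of 5 oligodendrocyte lineage genes tested rose and 2 fell, 2 of 5 neural progenitor genes rose and 2 fell, none of 3 neuron genes rose and 1 fell, 2 of 6 fibroblast and mural genes rose and 3 fell, 3 of 5 endothelial genes rose and 1 fell, and 1 of 2 lymphocyte and neutrophil genes rose and 1 fell. The summed endothelial markers were at 43.3 to 48.4 CPM in EV-treated and 77.1 to 174.5 CPM in control libraries, and the lymphocyte and neutrophil markers at 25.5 to 34.3 CPM in EV-treated and 7.11 to 11.2 CPM in control libraries.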

Additional observations from a re-analysis of the deposited data

How the results depend on the processing

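Of the 180 alternative values for the 10 members, 165 kept their direction and their side of the threshold. Some of these could hardly differ. The fit on entries of single genes kept all counts of the 10 members. Leaving out bins of shifted usage, a fit added after the data were seen, kept those of members without such a bin. With library totals alone Tgfb1 was at -0.078 and Smad2 at -0.056, against 0.29 and 0.31 with TMM scaling. Tgfb1 passed with DESeq2 (0.32), with the replicate block (0.29) and without EV-treated B, and Smad2 no longer passed under 8 alternatives other than library totals, at 0.19 to 0.39. Counts of members that rose stayed at 4 to 7 and of those that fell at 3. With the sex-linked covariate Tgfb1 was at 0.02, and 3599 entries rose and 3672 fell, against 5482 and 5555, and counts fell by more than 1.5 times for rises in latency and activation (6), SMAD partners (9), kinases (3), ID and E proteins (1) and microglial genes (1), and for falls among inhibitors (1). The Skil to Ski difference was 1.72 on the most-covered bins, against 2.28. Replicate letters do not pair the samples by the labels. Deviations of same-letter libraries correlated at 0.04, 0.17 and 0.21, each library best with its own letter. For EV-treated A the correlations with control A (0.035) and control B (0.0341) were nearly equal. Numbers in the deposited column names would instead pair EV-treated B with control A (0.00973) and EV-treated C with control B (-0.199). The replicate block, by letter, kept 4 members with shifted bins. There were 3 libraries a group, and the Smad4 bin rested on few counts.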
